A study of Sus scrofa with 2 samples.

Results

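The genes studied here are 9 of the 22342 genes counted in each library and encode proteases and protease inhibitors of the follicle. They are the matrix metalloproteinases MMP2 and MMP14, and the tissue inhibitors of metalloproteinases TIMP1, TIMP2 and TIMP3. The others are the plasminogen activators PLAT and PLAU, the serpin SERPINE2 that inhibits them, and the lysosomal protease CTSL. All 9 were chosen by name. Of these, 8 were found by symbol in the deposited gene list, and CTSL, which is listed there by identifier alone, was matched through its Ensembl identifier.

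Somatic cells were collected from 2 healthy antral follicles of over 7 mm in diameter, both from 1 Landrace × Yorkshire pig aged 210 days that had been given pregnant mare serum gonadotropin before slaughter. The follicles were punctured and flushed, cumulus-oocyte complexes were picked out and pipetted in hyaluronidase, and the granulosa cells left in the fluid were pelleted and loaded. The follicles are numbered 1 and 2 and carry the names AF75 and AF76. Each gave 1 library on the 10x Genomics platform, with no treated or control group, and both share the same animal and the same priming.

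Proteolysis in the follicle runs in linked steps. Plasminogen activators cut plasminogen into plasmin, which degrades fibrin and matrix and can activate metalloproteinases. MMP14 sits in the cell membrane and activates the secreted gelatinase MMP2, a step in which TIMP2 serves as an adaptor at low amounts and as an inhibitor at high amounts. Remodelling of the follicle wall and expansion of the cumulus matrix before ovulation are known to draw on these enzymes, and the secreted inhibitors limit how far they act.

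Counts were unique molecular identifiers (UMIs), each marking 1 captured transcript. As every transcript is tagged once near its 3′ end whatever its length, UMIs per 1000000 UMIs of the same cells (CPM) can be set side by side between genes, though capture may differ between transcripts. After barcodes with 2000 to 5000 genes and less than 7% mitochondrial UMIs were taken, 9362 cells of AF75 and 7843 of AF76 were left, with a median of 11254.5 and 13902 UMIs per cell. The 2 libraries share 56 barcode sequences. With 1 library per follicle no test between follicles can be made, so no p-value is given, and all intervals are exact 95% intervals that cover counting error only.

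The start regions of 4 of the genes are shown because the results turn on them. MMP2 stood out in 1 cluster of cells, TIMP3 and PLAT were high in the same clusters of AF75, and TIMP1 was the most abundant of the 9. Each line gives the 250 bases before the annotated gene start on the gene's own strand, 5′ to 3′, read from the RefSeq annotation of Sscrofa11.1, with GC boxes (GGGCGG) and TATA boxes (TATAAA) in capitals, on either strand and merged where they overlap. The MMP2 window is chr6:30087032-30087281 (minus strand), that of TIMP3 chr5:12242600-12242849 (minus), that of PLAT chr17:11223822-11224071 (minus) and that of TIMP1 chrX:42103001-42103250 (plus).
MMP2: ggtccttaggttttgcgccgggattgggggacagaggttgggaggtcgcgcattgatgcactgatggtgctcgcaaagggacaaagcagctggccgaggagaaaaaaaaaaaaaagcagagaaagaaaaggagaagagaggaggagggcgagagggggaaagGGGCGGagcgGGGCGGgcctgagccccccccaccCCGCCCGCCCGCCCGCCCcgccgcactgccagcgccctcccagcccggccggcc
TIMP3: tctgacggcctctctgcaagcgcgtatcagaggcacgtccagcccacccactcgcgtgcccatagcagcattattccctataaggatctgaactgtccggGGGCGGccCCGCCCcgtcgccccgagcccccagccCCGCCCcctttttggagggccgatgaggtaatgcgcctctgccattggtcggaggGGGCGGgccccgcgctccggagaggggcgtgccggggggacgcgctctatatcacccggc
PLAT: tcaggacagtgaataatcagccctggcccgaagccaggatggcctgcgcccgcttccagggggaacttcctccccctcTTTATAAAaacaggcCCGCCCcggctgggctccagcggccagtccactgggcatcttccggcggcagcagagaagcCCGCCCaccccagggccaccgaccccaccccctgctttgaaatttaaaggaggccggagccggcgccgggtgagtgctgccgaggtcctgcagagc
TIMP1: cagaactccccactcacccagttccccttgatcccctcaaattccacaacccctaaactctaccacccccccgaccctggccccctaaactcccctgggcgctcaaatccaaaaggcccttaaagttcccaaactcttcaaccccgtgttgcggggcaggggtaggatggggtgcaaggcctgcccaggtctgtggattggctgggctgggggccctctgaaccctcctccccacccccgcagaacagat

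The GC box was found in 7 of the 9 windows, against 45.9% of 19556 windows of the same length at protein-coding genes. MMP2 held 6 matches, some of them overlapping repeats, TIMP3 held 4, PLAT held 2, and TIMP1 and SERPINE2 held none. PLAT was the only member with a TATA box, which 9.77% of all windows hold, as 2 overlapping matches on opposite strands. An AP-1 site (TGANTCA), a CRE (TGACGTCA), an NR5A site (CAAGGTCA) and an E-box (CACGTG) were found in none of the 9 windows, and in 5.27%, 1.70%, 1.17% and 6.39% of all windows. These are matches of letters in a fixed window beside an annotated start and say nothing of binding.

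In both follicles TIMP1, TIMP2 and SERPINE2 were far more abundant than MMP2, MMP14, PLAT and PLAU, whereas TIMP3 was not. TIMP1 (ENSSSCG00000012277, chrX:42103251-42106289), a secreted inhibitor of most metalloproteinases, reached 10153 CPM (AF75) and 9931 CPM (AF76). SERPINE2 (ENSSSCG00000016233, chr15:125748383-125777788), also known as protease nexin-1, was at 6847 and 6621 CPM. CTSL (ENSSSCG00000010948, chr10:27668523-27674705) was the only protease at this order of level, at 3174 and 3531 CPM. Together the 9 genes made up 2.05% of all UMIs in AF75 and 2.04% in AF76, and nearly all of that came from these 3.

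**Figure D1:**
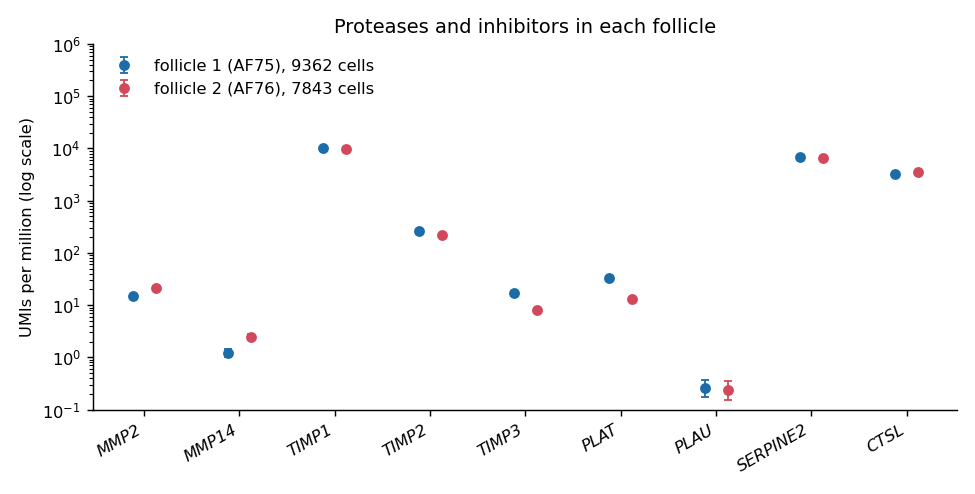
Level of each of the 9 genes in follicle 1 (AF75, blue) and follicle 2 (AF76, red), in CPM on a log scale; bars are exact 95% Poisson intervals and are often smaller than the points. TIMP1, SERPINE2 and CTSL lie at 3174 CPM or more in both follicles, whereas PLAU lies below 1.

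The other members were lower by far. TIMP2 (ENSSSCG00000017164, chr12:3254794-3300835), both an inhibitor and the adaptor for MMP2 activation, had 258 and 221 CPM in AF75 and AF76. TIMP3 (ENSSSCG00000031866, chr5:12185816-12242599), which binds the matrix and also restrains ADAM proteases, was at 16.9 and 8.17 CPM. TIMP1 alone made up 97.4% and 97.7% of the UMIs of the 3 TIMPs.

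Among the proteases, MMP2 (ENSSSCG00000002829, chr6:30059247-30087031) had 15.0 CPM (14.3–15.8) in AF75 against 21.8 CPM (20.9–22.7) in AF76. MMP14 (ENSSSCG00000002039, chr7:76174502-76185931), its membrane-bound activator, was at 1.22 and 2.43 CPM. PLAT (ENSSSCG00000007032, chr17:11195599-11223821), the tissue-type plasminogen activator, had 32.5 and 13.3 CPM. PLAU (ENSSSCG00000010312, chr14:76629313-76635173), the urokinase-type activator, gave only 29 and 26 UMIs in the whole of each follicle, or 0.261 and 0.239 CPM, so that its pattern across cells cannot be read at this depth.

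Some of these counts may be shared with other genes. CTSL has a close paralogue, CTSV, listed at 350 and 315 CPM, and TIMP2 overlaps CEP295NL on the same strand. On the opposite strand, TIMP1 overlaps SYN1, TIMP3 overlaps SYN3 and PLAU overlaps CAMK2G and LOC102160869. Whether strand was used in counting is not given in the sources used here.

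Between the follicles, 3 of the 8 members with at least 200 UMIs in 1 follicle or both differed by at least 1.5-fold, against 5.65% of the 10049 genes with as many UMIs. MMP14 met this minimum through AF76 alone (265 UMIs against 136), so its place in the count is no support. MMP14 was 1.99-fold higher in AF76 (1.61–2.47), TIMP3 was 2.07-fold lower (ratio 0.483, 0.445–0.523) and PLAT was 2.45-fold lower (ratio 0.408, 0.384–0.434). Without cluster 2, described next, MMP14 was at a ratio of 1.10 (0.862–1.40) and MMP2 at 0.980 (0.914–1.051), whereas TIMP3 was 4.18-fold lower and PLAT 2.60-fold lower, which made 2 of 7 members past 1.5-fold, against 5.45% of 9979 genes. MMP2, just inside the limit, was 1.45-fold higher in AF76 (1.36–1.54). It passed the limit under 4 other settings.

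TIMP1, TIMP2, SERPINE2 and CTSL lay closer together, with ratios of AF76 to AF75 of 0.978, 0.858, 0.967 and 1.11. The median log2 ratio of the 8 members was −0.04, beside −0.0019 over all genes compared. The members past 1.5-fold were thus among the rarer ones.

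To see in which cells these differences lay, the cells of both follicles were integrated and clustered, with the 9 genes and the other proteolysis genes left out of the genes used. Of the 6 clusters obtained, the largest, cluster 0, had TGFB3, ENPP2, IL33 and LRP11 as leading genes (6384 cells of AF75 and 5880 of AF76) and cluster 1 by MRO, VCAN, APOA1 and INHBA (2326 and 962 cells). Cluster 2 was led by CEMIP, CCDC80, FBXO32 and CRABP2 and held 677 cells of AF76 but 1 of AF75. Cluster 3 was led by the cell cycle genes TOP2A, CENPF, UBE2C and CENPE (455 and 121), and cluster 4 by C12orf75, SCG2, CXCL14 and SLC24A1 (175 and 172). Cluster 5, led by interferon response genes, held 21 and 31 cells and was left out.

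Cell types were not named from these clusters. The granulosa marker INHA, a subunit of inhibin, was at 22712 and 24522 CPM in cluster 0. In cluster 2 it was at 2246 CPM, beside FSHR at 38.5 CPM and CYP11A1, the first enzyme of steroid synthesis, at 1980 CPM. The 9 listed theca and stromal markers summed to 317 CPM in cluster 2, against 8.01 to 14.2 CPM in cluster 0. TAGLN and ACTA2 gave most of that, at 206 and 61.9 CPM, whereas DCN was at 18.4, COL1A1 at 9.20, PDGFRA at 0.837 and CYP17A1, the theca enzyme of androgen synthesis, at 0.418 CPM. The 4 endothelial markers measured summed to 25.9 CPM there against 11.3 CPM in cluster 0 of AF76, with VWF at 22.6 CPM and CDH5 at 0 in cluster 2. The 8 leukocyte markers summed to 8.16 against 5.15 CPM, with PTPRC among the 3 at 0 in cluster 2. As cluster 2 is nearly all from 1 library, it cannot be told apart from that library, and the part of these other markers in its values was not tested.

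**Figure D2:**
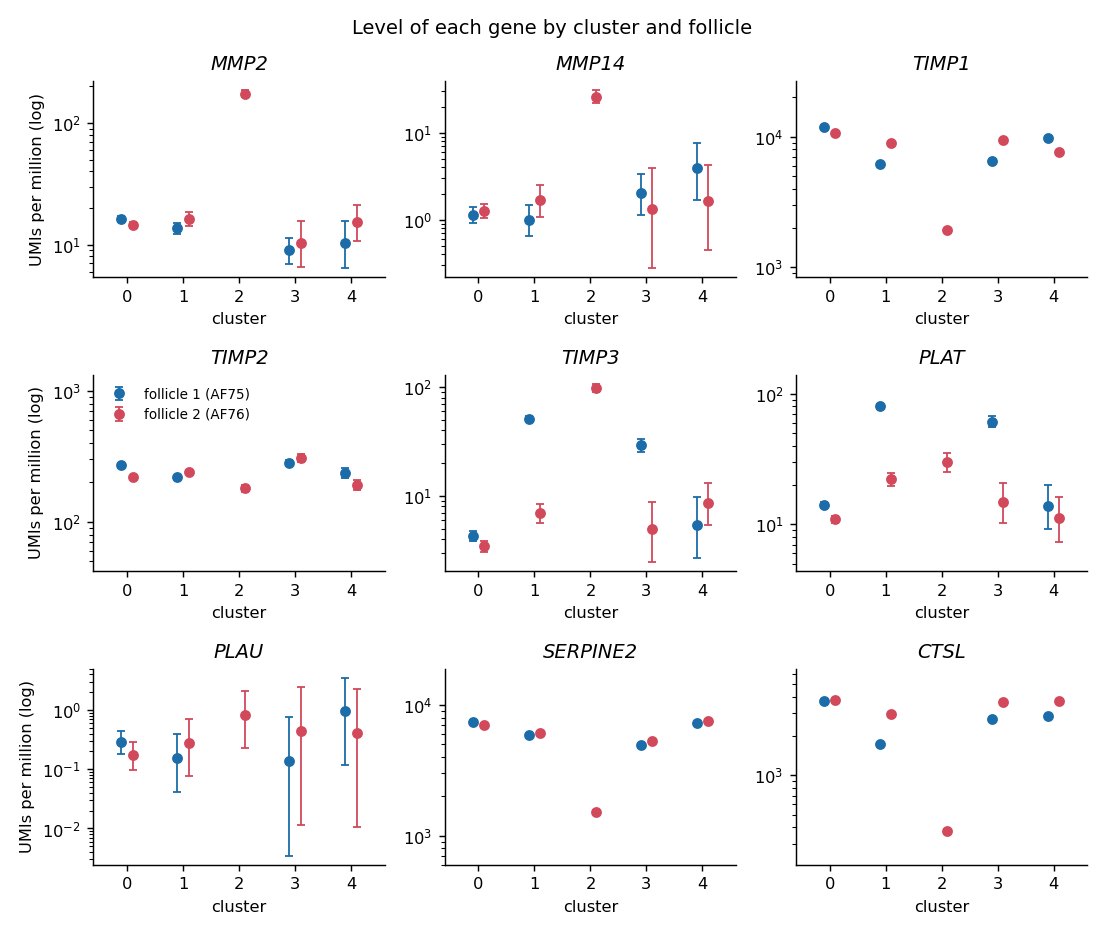
Level of each gene in clusters 0 to 4 of follicle 1 (blue) and follicle 2 (red), in CPM on a log scale with exact 95% Poisson intervals; cluster 2 is shown for follicle 2 only. In cluster 2, MMP2, MMP14 and TIMP3 are the highest of all clusters of that follicle, and TIMP1, SERPINE2 and CTSL the lowest.

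Both member metalloproteinases, MMP2 and MMP14, were highest in cluster 2. MMP2 was at 16.2 and 14.6 CPM in cluster 0 of the 2 follicles, between 8.97 and 16.3 CPM in clusters 1, 3 and 4, and at 175 CPM (163–187) in cluster 2. This was 12.0-fold over cluster 0 of the same follicle (10.9–13.1). MMP14 was at 1.15 and 1.27 CPM in cluster 0, and at 26.1 CPM in cluster 2, or 20.5-fold higher (15.8–26.8). The MMP14 values of clusters 3 and 4 rest on 3 to 15 UMIs and overlap those of cluster 0 within their intervals, except cluster 4 of AF75 at 3.93 CPM (1.70–7.74).

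The TIMPs did not move as one group across the clusters. TIMP3 was at 3.44 CPM in cluster 0 of AF76 and at 97.9 CPM in cluster 2, or 28.5-fold higher (24.5–33.0). TIMP2 was nearly level, at 219 and 181 CPM. TIMP1 was at 10636 CPM in cluster 0 of AF76 and at 1921 CPM in cluster 2, which is 5.54-fold lower. TIMP1 still made up 87.3% of the TIMP UMIs of cluster 2.

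The plasminogen activator side was divided in the same way. PLAT was at 10.9 CPM in cluster 0 of AF76 and 29.7 CPM in cluster 2, or 2.72-fold higher (2.27–3.25). SERPINE2 was at 7006 CPM in cluster 0 and at 1525 CPM in cluster 2, which is 4.59-fold lower. CTSL had the largest difference of the 9 in the downward direction, with 3788 and 375 CPM, which is 10.1-fold lower.

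Between clusters 2 and 0 of AF76, 6 of the 7 members with at least 200 UMIs in either differed by 2-fold or more, against 29.6% of 9414 genes. Of these genes 20.4% were higher in cluster 2 and 9.23% lower, so wide differences were common between these clusters. Of the 7 members, 3 were higher and 3 lower. MMP14 and PLAU had fewer UMIs than this, with 125 and 4 in cluster 2.

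The share of cells with a UMI pointed the same way once cells were thinned to 5000 UMIs each. MMP2 was then seen in 42.6% of 585 cells of cluster 2 and in 6.39% of 5872 cells of cluster 0 of AF76, against 49.2% and 17.4% before thinning. TIMP3 was seen in 30.4% and 1.77%, and MMP14 in 11.8% and 0.647%. The 46 red cell barcodes of AF76, with HBB at 20% of UMIs or more and a median of 3602 UMIs, held no UMI of MMP2 or MMP14, which allows a share of up to 6.52%. TIMP3 gave 3 UMIs in 1 of these barcodes, a mean of 0.0652 UMIs per barcode, beside 0.0497 in cluster 0 and 0.691 in cluster 2. With 3 UMIs in 1 barcode, it cannot be told whether the level of TIMP3 in cluster 0 lay above a background. The ratio of cluster 2 to cluster 0 rests on that level.

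TIMP1, SERPINE2 and CTSL were also counted in the red cell barcodes of AF76, where HBB made up 58.1% of UMIs. Red cell barcodes of AF76, set apart by HBB alone, held a mean of 4.02 UMIs of TIMP1, and 87.0% of them had at least 1. Cells of cluster 2 held a mean of 13.6 UMIs and cells of cluster 0 a mean of 154. For SERPINE2 the means were 1.85, 10.8 and 101, and for CTSL 1.02, 2.65 and 54.7 UMIs. Whether the UMIs in red cell barcodes came from transcripts free in the suspension was not tested. The part of free transcripts in the low levels of TIMP1, SERPINE2 and CTSL in cluster 2 was not measured. Cells of cluster 2 had a median depth of 6416 UMIs, less than the 14224.5 of cluster 0.

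The balance of the metalloproteinase arm was given as the share of MMP2 and MMP14 among UMIs of MMP2, MMP14, TIMP1, TIMP2 and TIMP3. Other MMPs were left out, of which MMP16, MMP3 and MMP11 each had more UMIs than MMP2 in both follicles. MMP16 had 4259 UMIs in AF75 and 3500 in AF76, against 1672 and 2370 for MMP2. The share holds for MMP2 and MMP14 alone and was not computed over all MMPs. This share was 0.156% in AF75 (0.149–0.163), or 642 inhibitor UMIs for each UMI of MMP2 or MMP14. In AF76 it was 0.238% (0.229–0.247), or 420. TIMP1 made up 97.4% of these inhibitor UMIs in AF75 and 97.7% in AF76, so the share mostly sets MMP2 and MMP14 against TIMP1. Without cluster 2 the share in AF76 was 0.152% (0.145–0.160), and the 2 follicles differed by −0.0032 percentage points in place of 0.082. Within cluster 0 it was 0.143% and 0.146%, with intervals that overlap.

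In cluster 2 the share was 8.37% (7.87–8.90), from 961 protease and 10514 inhibitor UMIs, or 10.9 inhibitor UMIs for each protease UMI. A UMI of MMP2 or MMP14 was seen in 54.8% of its cells. In 15 cells of AF76 the UMIs of MMP2 and MMP14 equalled or exceeded the TIMP UMIs, and all 15 were in cluster 2. No cell of AF75 did so. Thinned to 5000 UMIs, the share in cluster 2 was 8.20%.

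**Figure D3:**
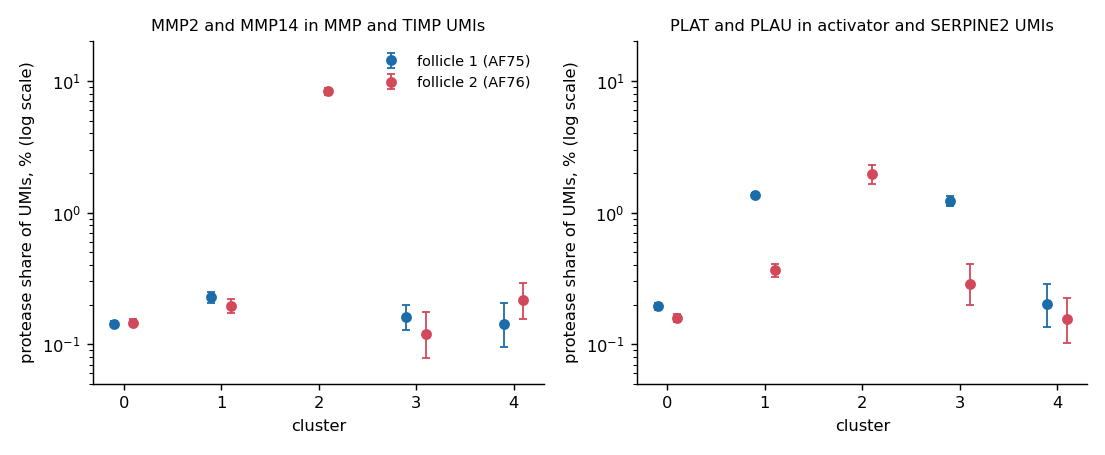
Protease share of UMIs in clusters 0 to 4, in percent on a log scale with Clopper-Pearson 95% intervals, for MMP2 and MMP14 against the TIMPs (left) and for PLAT and PLAU against SERPINE2 (right), in follicle 1 (blue) and follicle 2 (red). The metalloproteinase share stands at 8.37% in cluster 2 and below 0.3% elsewhere, whereas the activator share is over 1% in clusters 1 and 3 of follicle 1 as well as in cluster 2.

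The plasminogen activator arm differed between follicles in the other direction. PLAT and PLAU made up 0.476% of activator and SERPINE2 UMIs in AF75 (0.461–0.492) and 0.204% in AF76 (0.193–0.214). In cluster 0 the shares were 0.195% and 0.158%. In cluster 1 they were 1.35% (1.29–1.41) and 0.363% (0.325–0.406), and in cluster 3 they were 1.22% and 0.289%. Cluster 2 was at 1.96% (1.66–2.30), so that the activator share was high in cells of both follicles, though not in the same clusters.

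Almost all of the activator UMIs were PLAT, which in AF75 was high in the same clusters as TIMP3. Over single thinned cells the correlation of both genes was −0.02 and 0.01 in cluster 0 of AF75 and AF76. It was 0.11 and 0.06 in cluster 1 and −0.03 in cluster 2. In cluster 1 of AF75, TIMP3 was seen in 23.2% of thinned cells with PLAT and 14.0% of the rest. In cluster 0 of AF75 these shares were 0.907% and 2.14%. With so few UMIs per cell, correlations near 0 cannot tell whether the likeness also holds within clusters. In AF75, PLAT was at 14.1 CPM in cluster 0 and 79.7 CPM in cluster 1, or 5.66-fold higher (5.26–6.10), and TIMP3 was at 4.31 and 51.3 CPM, or 11.9-fold higher (10.5–13.5). Cluster 3 of AF75, the cycling cells, lay between them at 60.9 CPM of PLAT and 29.1 CPM of TIMP3. CTSL was the opposite, at 3724 CPM in cluster 0 and 1735 CPM in cluster 1, which is 2.15-fold lower. These 3 were the members past 2-fold of the 7 with enough UMIs, against 8.29% of 9373 genes.

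In AF76 the same clusters differed by less. PLAT was at 10.9 and 22.1 CPM and TIMP3 at 3.44 and 6.898 CPM, which are 2.03-fold (1.78–2.30) and 2.00-fold (1.58–2.53) higher in cluster 1. CTSL was at 3788 and 2963 CPM. TIMP3 and PLAT were the members past 2-fold here, against 1.42% of 9389 genes, and TIMP3 was just at the limit. TIMP3 was also higher in cluster 4 of AF76, at 8.67 CPM from 21 UMIs, or 2.52-fold over cluster 0 (1.54–3.93). PLAT there was at 11.2 CPM, a ratio of 1.02. Of 9389 genes, 2.11% were 2-fold higher in that comparison.

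Set directly against each other, the follicles differed in clusters 1 and 3. TIMP3 was 7.44-fold lower (ratio 0.134, 0.108–0.165) and PLAT 3.605-fold lower (ratio 0.277, 0.246–0.313) in cluster 1 of AF76, and CTSL was 1.71-fold higher (1.69–1.73). In this cluster 14.4% of 7598 genes were past 1.5-fold. In cluster 0 none of the 7 members with enough UMIs was past 1.5-fold, against 1.8% of 9461 genes. There TIMP3 and PLAT had ratios of 0.798 and 0.775. In cluster 4, on few UMIs, TIMP3 was at a ratio of 1.61 (0.740–3.69), from 21 UMIs in AF76 and 11 in AF75. PLAT was at 0.811 there (0.460–1.43), from 27 and 28 UMIs. In cluster 3, PLAT was 4.11-fold lower in AF76 (ratio 0.243, 0.165–0.347) and TIMP3 5.89-fold lower (ratio 0.170, 0.0835–0.310), where 8.5% of 4764 genes were past 1.5-fold. There both reached 200 UMIs only in AF75 (448 against 33 UMIs and 214 against 11), as did TIMP3 in cluster 1 (1331 against 98), so the number of members past the limit is no support.

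Cluster 1 itself was not alike in the follicles. VCAN, the hyaluronan-binding proteoglycan of the expanding cumulus matrix, had 5806 CPM there in AF75 against 1083 CPM in AF76. TNFAIP6, which links hyaluronan in that matrix, was at 2725 and 386 CPM, and INHBA was at 5665 and 1277 CPM. The part of this in the values of TIMP3 and PLAT was not tested.

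At a finer resolution of 0.8 the cells fell into 12 clusters, of which 9 held at least 50 cells of AF75. Ordered by VCAN, these 9 were in the same order by TIMP3, and nearly so by PLAT. In AF75, the clusters with VCAN at 327, 986, 2897, 6401 and 8626 CPM had TIMP3 at 2.99, 5.95, 15.7, 51.8 and 103 CPM. The same 5 clusters had PLAT at 10.1, 18.5, 36.2, 89.9 and 122 CPM. The last of them, 412 cells, was 34.6-fold over the first in TIMP3 (27.3–44.4) and 12.1-fold in PLAT (10.5–14.0).

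TIMP1 and CTSL ran the other way along these clusters. TIMP1 was at 12457, 10837, 9022, 5503 and 5059 CPM, and CTSL at 4048, 3187, 2587, 1554 and 764 CPM. SERPINE2 was at 7507 CPM in the first and 4668 CPM in the last. MMP2 was at 16.3 and 5.91 CPM, so that in AF75 the fine cluster with the most TIMP3 had the least MMP2.

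**Figure D4:**
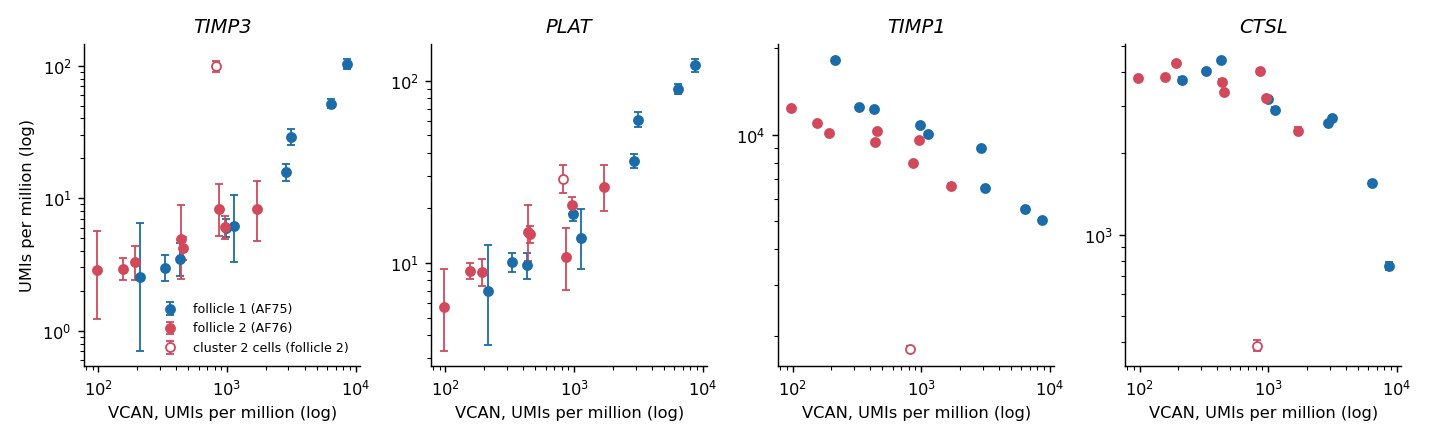
TIMP3, PLAT, TIMP1 and CTSL against VCAN over the fine clusters with at least 50 cells of follicle 1 (blue) or follicle 2 (red), both axes in CPM on log scales, with 95% Poisson intervals. Outside cluster 2 (open symbol), clusters with more VCAN mostly had more TIMP3 and PLAT and less TIMP1 and CTSL, and those of follicle 2 lie at the lower VCAN levels.

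In AF76 the fine clusters reached less VCAN and less of both genes. The cluster at 6401 CPM of VCAN in AF75 held 136 cells of AF76 with VCAN at 1702 CPM, TIMP3 at 8.31 CPM and PLAT at 26.0 CPM, which rest on 16 and 50 UMIs. Its ratios of AF76 to AF75 were 0.160 for TIMP3 (0.0911–0.262) and 0.289 for PLAT (0.213–0.383). The cluster with the most VCAN held fewer than 50 cells of AF76. Clusters are no replicates and share each follicle's library, so this is a description.

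The fine cluster that held 646 cells of cluster 2 stood off this order. Its VCAN was at 817 CPM, below the 962 CPM of a fine cluster of AF76 with TIMP3 at 6.06 CPM, but its own TIMP3 was at 98.8 CPM and its CTSL at 387 CPM. PLAT was at 28.8 CPM. TIMP3 was therefore high both in cluster 2 of AF76, beside high MMP2 and MMP14, and in the VCAN-rich cells of AF75, beside high PLAT.

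Over the clusters of each follicle with at least 50 cells, 5 of the 9 members spanned 2-fold or more in both follicles. These were TIMP3, PLAT, CTSL and, from few UMIs, MMP14 and PLAU. The span of PLAU in AF75 is that of 2 UMIs in cluster 4 against 1 UMI in cluster 3 and cannot be read. Genes with at least 200 UMIs in each follicle did so in 18.6% of 9715 cases, and MMP14 and PLAU fall below that number. TIMP2 spanned least, 1.29-fold in AF75 and 1.71-fold in AF76. Without cluster 2 the members that did so in both were TIMP3 and PLAT, beside PLAU on its few UMIs. The share of all genes was not computed without cluster 2, so this count has no background beside it.

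Within a cluster, single cells differed widely in TIMP1 and CTSL and much less in SERPINE2. In cluster 0 of AF75, with each cell thinned to 5000 UMIs, TIMP1 was at 6 UMIs in the 5th percentile of cells, 38 in the median and 188 in the 95th. CTSL was at 1, 12 and 59 UMIs, and SERPINE2 at 14, 35 and 67. AF76 gave 5, 32 and 174 for TIMP1, 1, 12 and 62.5 for CTSL, and 12, 33 and 64 for SERPINE2.

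The coefficient of variation across these cells was 1.04 for TIMP1 and 1.08 for CTSL in AF75, and 1.10 and 1.11 in AF76. SERPINE2 was at 0.454 and 0.468, beside a median of 0.458 and 0.464 over the 157 and 164 genes with a mean of at least 5 UMIs. By this measure CTSL ranked 7th in both follicles and TIMP1 8th and 9th. The 10% of cells with the most TIMP1 held 34.6% and 36.0% of its UMIs, and for CTSL 35.1% and 36.1%. Counting alone would give a coefficient of 0.130 for TIMP1 and 0.231 for CTSL at these means in AF75.

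**Figure D5:**
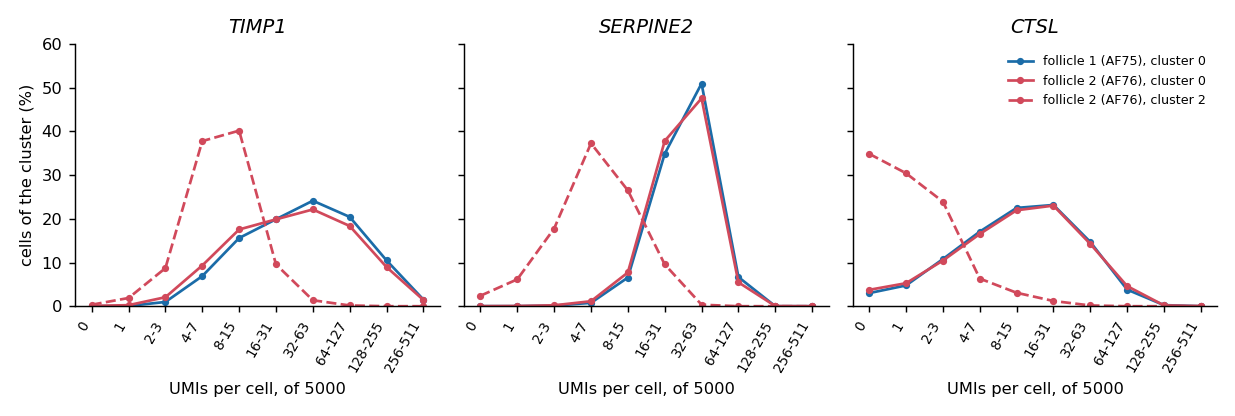
Percent of cells by UMIs per cell after thinning to 5000 UMIs, for TIMP1, SERPINE2 and CTSL in cluster 0 of follicle 1 (blue), cluster 0 of follicle 2 (red) and cluster 2 of follicle 2 (red, dashed). TIMP1 and CTSL spread over a wide range within cluster 0, SERPINE2 over a narrow one, and all 3 lie lower in cluster 2.

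TIMP1 and CTSL did not vary together in these cells. Their correlation on the log scale was −0.01 in cluster 0 of AF75 and −0.04 in AF76, over 6372 and 5872 thinned cells. SERPINE2 and CTSL were at 0.19 and 0.17 in cluster 0 and at 0.33 and 0.30 in cluster 1. The cells of each value share 1 library and 1 depth, and these correlations are small.

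Other genes of matrix and lysosomal proteolysis were described from a list of 48, of which 44 were in the deposited gene list, 22 of them at 10 CPM or more in a follicle. ANXA2 and S100A10, which together form a plasminogen receptor at the cell surface, were at 7026 and 1314 CPM in AF75 and at 7300 and 1301 CPM in AF76. The serine protease inhibitor TFPI2 was at 5345 and 4593 CPM, above any protease of the list. PLAUR, the cell surface receptor of PLAU, was at 9.11 and 7.35 CPM, and plasminogen (PLG) itself was listed at 0.

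Lysosomal proteases other than CTSL were led by CTSC at 1025 and 880 CPM, CTSB at 606 and 505 CPM and CTSD at 549.9 and 476 CPM. Their inhibitors CST3 and CSTB were at 545 and 671 CPM and at 451 and 460.1 CPM. Of the 30 genes of the list with at least 200 UMIs, none was higher in AF76 by 1.5-fold and 3 were lower, against 1.8% and 3.85% of all genes. The 3 were MMP19 at 11.3 and 4.75 CPM, SERPINA5 at 2.47 and 0.982 CPM and CST6 at 3.05 and 1.88 CPM. SERPINA5 met the minimum through AF75 alone (275 against 107 UMIs), so its place in the count is no support.

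MMP19, a secreted metalloproteinase, was at 7.75 CPM in cluster 0 and 19.9 CPM in cluster 1 of AF75, or 2.57-fold higher (2.28–2.90), and it was at 3.73 CPM in cluster 1 of AF76. It was the 1 gene of the 28 compared that was 2-fold higher in cluster 1 of AF75, and MMP23B the 1 that was lower, against 3.65% and 4.64% of all genes.

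In cluster 2 of AF76, 6 of the 28 list genes with enough UMIs were 2-fold higher than in cluster 0 and 10 were lower, against 20.4% and 9.23% of all genes. The share that was higher is about that of all genes. Those higher were MMP11, a stromelysin (103 against 20.5 CPM), RECK, a membrane-anchored inhibitor of metalloproteinases (11.7 against 5.37), LRP1, the receptor that clears protease and inhibitor complexes (37.2 against 17.0), SPINT2 (24.1 against 7.97), CTSF (264 against 101) and CST3, the cystatin that inhibits cysteine cathepsins (2596 against 506). Among those lower, TFPI2 was at 382 against 4928 CPM, which is 12.9-fold lower. ANXA2 and S100A10 were 4.64-fold and 7.13-fold lower.

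MMP3, MMP16, PLAUR, SERPINB2, FURIN and CTSC were also lower there. The median log2 ratio over the 28 was −0.07, beside 0.35 over all genes compared, and the part of free transcripts in the low values was not measured. In cluster 4, PLAUR was the list gene past 2-fold above cluster 0 in both follicles, at 20.6 against 7.18 CPM in AF75 and 15.3 against 7.08 CPM in AF76. Of all genes compared 2.37% and 2.11% were higher by this much.

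Genes with the pattern most like each member were sought by Pearson correlation of log2(CPM + 1) over the 9 groups of cluster and follicle with at least 50 cells. For MMP2 they were CTSF, NPNT and RPL32 (0.98 to 0.99), and for MMP14 TLK2, NRP1 and R3HDM1. TIMP3 was nearest to RABEP1, RGS4 and AOX1, and PLAT to SLC5A3, CDCA7L and NAV2. The nearest to SERPINE2 were DEGS1, GPC1 and MAP2K1, and to CTSL EIF4EBP1, AP3S1 and NDUFAB1. TIMP1 had ROCK2 and IPMK among its 3 nearest, and TIMP2 had GFER, MOCS2 and TUBB4B (0.90 to 0.94). PLAU, at 1 to 22 UMIs a group, was nearest to CAPG. Cluster 2 stands far from the other 8 groups in many genes and weighs heavily in these values.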

How the data were processed

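The authors deposited, for each follicle, a matrix of raw UMI counts per gene and barcode, made from 3′ 10x Genomics libraries. Per the labels and methods, Cell Ranger 6.0.2 and the Sscrofa 11.1 genome were used. The 2 libraries held 14289 and 15548 barcodes with 125409747 and 127414267 UMIs, and no value was normalized before deposit.

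Barcodes with 2000 to 5000 genes and under 7% mitochondrial UMIs were kept, as in the study's methods. Doublets were not removed in the values given. In an alternative, the 6.9% of cells with the highest doublet score were left out. UMIs were summed over cells and divided by the total to give CPM, with exact Poisson, conditional (ratios) and Clopper-Pearson (shares) 95% intervals. Cells were clustered with Seurat 5.3.0 in R 4.3.3 (anchor integration, 2000 variable genes, 40 components, 6 clusters sought), without the members and the pathway list. Sums, shares and intervals came from scipy 1.17.1 and pandas 2.3.3 under Python 3.11.15. The calculation of ratios was checked on simulated counts for 9943 genes between follicles, where 95.4% of true ratios lay inside their intervals. These counts were drawn with counting error alone, which the intervals assume. The check therefore says nothing of the spread between cells or libraries in the real data.

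A gene entered a comparison with 200 UMIs on either side, and was counted past 1.5-fold between follicles or 2-fold between clusters. Named genes were the members, list genes at 10 CPM or more in a follicle or past the fold, the 3 genes most alike (at 50 CPM or more in a group) and the 4 leading genes of each cluster. Members and lists were chosen with earlier results of these data known. Of the 7356 genes listed by identifier alone, 1042 were named from the RefSeq table. The values of 1 list gene are not reported here. No test between follicles was made, as each has 1 library.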

Additional observations from a re-analysis of the deposited data

Results flagged for a closer look

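In 9 cases a member's ratio had the opposite direction in 2 groups of cells. These differences were not tested, and with 1 library per follicle no spread between follicles is known.

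The ratio of AF76 to AF75 was above 1 in some clusters where it was below 1 in cluster 0. For TIMP1 it was 1.45 in cluster 1 and 1.44 in cluster 3, against 0.895 in cluster 0. For TIMP2 it was 1.10 in cluster 1 and 1.09 in cluster 3, against 0.810. MMP2 was at 1.20 in cluster 1, against 0.901. SERPINE2 was at 1.052, 1.07 and 1.02 in clusters 1, 3 and 4, against 0.951. The ratio of cluster 1 to cluster 0 for TIMP2 was 1.10 in AF76 and 0.808 in AF75.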

How the results depend on the processing

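No paired analysis was possible because each follicle gave 1 library and no comparison rests on a test. The metalloproteinase share of AF76 minus that of AF75, 0.0819 percentage points as reported, was 0.103 with limits of 500 to 6000 genes, 0.114 over all deposited barcodes, 0.130 in cells thinned to 5000 UMIs and 0.161 as a mean of per-cell CPM. It was −0.0032 without cluster 2, an alternative chosen after seeing the data. Without that cluster, 3 members in place of 5 spanned 2-fold in both follicles, with no share over all genes computed for that setting. Both counts include PLAU, whose span rests on 1 or 2 UMIs in some clusters. The other 24 alternatives for the counts and shares kept the direction and stayed within the spread or 1.5-fold, though not always with the same genes. MMP2 joined those past 1.5-fold with 500 to 6000 genes, over all barcodes, in thinned cells and as a mean of per-cell CPM. TIMP3 was no longer among them in the per-cell mean alone and stayed among them in the other 3. Of 72 alternatives for the 9 single ratios, 5 had the other direction: MMP2, TIMP1 and SERPINE2 without cluster 2, and PLAU in thinned cells and per-cell means. In the per-cell mean TIMP3 was at a log2 ratio of −0.43 in place of −1.05. The causes were not tested. Without integration no resolution step gave 6 clusters. Depth limits PLAU and, outside cluster 2, MMP14.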

Other observations

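Among all deposited barcodes, 4 of AF75 and 24 of AF76 were set apart by UMIs of several leukocyte markers, of which 1 and 9 lay within the limits on genes and mitochondrial UMIs. CTSS, a cathepsin of immune cells, had 1169 CPM (995–1365) there in AF75, against 4156 CPM (3841–4490) in AF76, and the cystatin CST3 was at 8154 and 44875 CPM. CTSL was at 2060 and 1297 CPM there. MMP9, the gelatinase of neutrophils and macrophages, gave 22 UMIs in the 4 barcodes of AF75 and 1 UMI in the 24 of AF76.

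The 4595 barcodes of AF75 with under 2000 genes had TIMP1 at 6281 CPM, MMP2 at 10.8 CPM and TIMP3 at 15.7 CPM. The 7397 such barcodes of AF76 had them at 4776, 36.5 and 24.1 CPM.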
